A study of Mus musculus with 14 samples.

Results

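Goblet cells are the mucus-secreting cells of the intestinal lining. Their granules hold the gel-forming mucin MUC2 together with proteins that fold it, bind it or are released beside it, and the gel that results keeps luminal bacteria away from the epithelium. The cells arise in crypts from progenitors that escape Notch signalling and switch on the transcription factor ATOH1, and SPDEF then drives their maturation. In the jejunum they are a minority among absorptive enterocytes, scattered along crypts and villi.

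Described here are 10 genes of this cell type, chosen by name: the mucus genes Muc2, Tff3, Clca1, Fcgbp, Agr2, Spink4, Zg16 and Retnlb, and the transcription factor genes Spdef and Atoh1. They were 10 of 22180 genes and 11 of 23521 probe sets with 1 gene symbol on the array, Muc2 having 2 probe sets and every other gene 1. RNA came from whole jejunum of 14 mice, 1 Affymetrix array per mouse. WT mice (7) had wild-type LRH-1, and K289R mice (7) had LRH-1 with arginine in place of a lysine that accepts the small modifier SUMO. LRH-1 is the nuclear receptor encoded by Nr5a2. All mice were 19 to 21 weeks old, housed at 5 mice per cage, fed freely and killed at 7 am. The labels call them biological replicates and give no strain, sex, litter or scan day, nor which mice shared a cage. The comparison asks how jejunal transcript levels differ with the altered receptor.

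Values are log2 intensities, and a difference is K289R minus WT, so a difference of 1 would be a doubling. Median intensities ran from 168 to 174 over the arrays. Intensities of different genes are not compared with each other, because each probe set has its own brightness. Of the enterocyte markers looked at, 16 of 16 were above the filter on dim genes. The ileal gene Fabp6 read 9.18 to 12.52 on 4 arrays (WT replicates 1 and 6, K289R replicates 2 and 7) and 6.09 to 6.63 on the other 10. Some results below are also given without those 4. Nr5a2 differed by −0.14 (SE 0.092, limma adjusted p = 0.685), and a point mutation need not alter its level. In whole tissue, fewer goblet cells and less RNA per goblet cell cannot be told apart.

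The goblet cell genes did not differ detectably between the genotypes. Of the 10 members, 9 passed the filter on dim genes, and 0 of these 9 passed limma's test at an adjusted p of 0.05 over 18010 genes, against 0.0444% of all genes tested (8 genes; 0.0167% higher and 0.0278% lower in K289R). Over every probe set with 1 symbol, 0 of the members' 11 passed, against 0.034% of all. With an unadjusted p under 0.05 there were also 0 of 9, against 8.48% of all genes (4.05% lower in K289R). Adjusted for the mean of general epithelial markers, 3 members had an unadjusted p under 0.05: Atoh1 (0.20, limma adjusted p = 0.227), Agr2 (0.14, limma adjusted p = 0.475) and Clca1 (0.14, limma adjusted p = 0.480). With array weights Atoh1 (0.18, limma adjusted p = 0.363) and Agr2 (0.13, limma adjusted p = 0.397) did. Of the 12 general epithelial markers, Elf3 alone had an unadjusted p under 0.05 by limma, with a difference of −0.38. Its part in the differences adjusted for their mean was not tested. Without these adjustments, differences of the 9 members ran from −0.024 for Tff3 to 0.12 for Atoh1, 6 above and 3 below 0. Of all genes tested, 52% were below 0. The members had a median of 0.03 beside −0.0039 over all genes tested. The 95% intervals of all 9 lay between −0.17 and 0.32. The ranges of the genotypes overlapped for 9 of 9, and 0.167% of all genes tested had ranges that did not overlap. Exact permutation p values over all 3432 splits of 7 against 7, 2-sided, ran from 0.199 to 0.936.

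**Figure D1:**
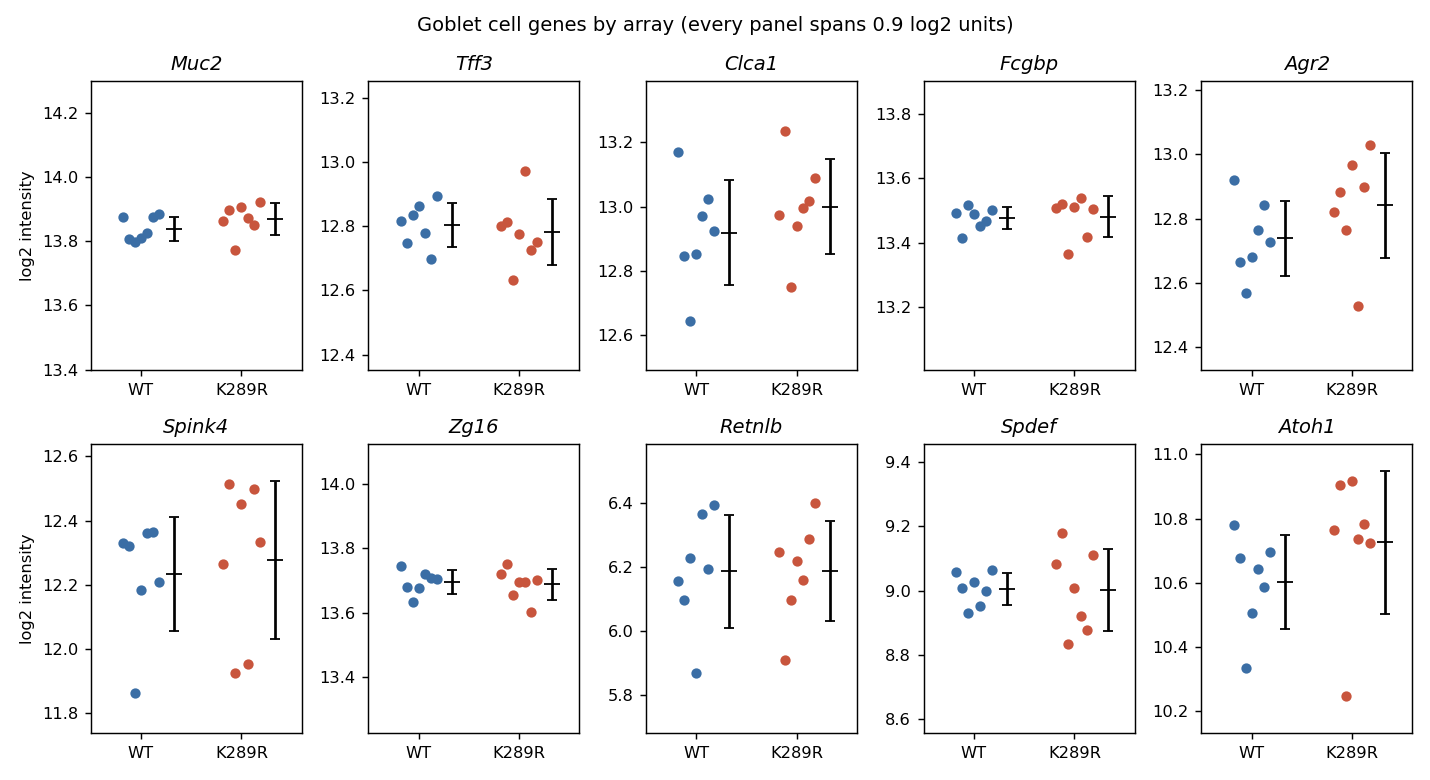
Log2 intensity of each goblet cell gene on each of the 14 arrays, WT in blue and K289R in red, each dot being 1 mouse and the bar the mean ± SD (n = 7). Every panel spans the same 0.9 log2 units, so Muc2, Fcgbp and Zg16 appear as tight clusters while Spink4 and Atoh1 spread widely, and the genotypes overlap in every panel.

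Muc2 encodes the gel-forming mucin itself. Its brighter probe set read a lowest, median and highest value of 13.80, 13.82 and 13.89 in WT and 13.77, 13.87 and 13.92 in K289R. The K289R values enclosed the whole WT range, and 6 of 7 K289R arrays were above the WT mean. The means were 13.84 ± 0.038 (SD, n = 7) and 13.87 ± 0.049 (SD, n = 7), a difference of 0.03 (SE 0.040, limma adjusted p = 0.847) or a fold of 1.02 with a 95% interval up to 1.08. The second Muc2 probe set differed by 0.073 (SE 0.052). The probe sets followed each other over the 14 mice (Pearson r = 0.89, permutation p = 3e-05; Spearman rho = 0.93, permutation p = 3e-05; r = 0.86 without the 2 arrays farthest from the median).

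Zg16 encodes a lectin that binds Gram-positive bacteria in mucus, and Fcgbp a large mucus protein that is stored and secreted with MUC2. Zg16 had a lowest, median and highest value of 13.63, 13.70 and 13.74 in WT and 13.60, 13.70 and 13.75 in K289R. Fcgbp read 13.42, 13.49 and 13.52 in WT and 13.37, 13.51 and 13.54 in K289R. For both genes the K289R range enclosed the WT range. Their differences were −0.0067 (SE 0.040) for Zg16 and 0.0048 (SE 0.042) for Fcgbp.

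Muc2, Zg16 and Fcgbp were also among the least variable genes tested. Their SD within a genotype (0.044, 0.042 and 0.051) was smaller than that of all but 0.444%, 0.355% and 1.02% of tested genes, where the median gene had 0.127. Their means lay 0.44, 0.60 and 0.81 below the highest log2 value of the whole table, 14.29. Genes near the top of the scale had small spreads in general, with a median SD of 0.060 over the 100 tested genes with a mean between 13 and 15 and 0.126 over the 4918 with a mean between 7 and 8. The part of a ceiling in these small spreads and differences was not tested.

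Tff3 encodes trefoil factor 3, a small disulfide-bonded peptide that aids epithelial repair. Its lowest, median and highest values were 12.70, 12.82 and 12.90 in WT and 12.63, 12.78 and 12.97 in K289R. K289R replicate 5 gave the highest and K289R replicate 3 the lowest of all 14 values. The difference of −0.024 (SE 0.053, 95% interval −0.13 to 0.09) was smaller than the SD in either genotype, 0.068 and 0.104.

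Clca1 encodes a secreted metalloprotease that cleaves MUC2 and loosens the mucus. It read 12.65, 12.92 and 13.17 in WT and 12.75, 12.99 and 13.24 in K289R as lowest, median and highest. The highest 4 arrays were K289R replicate 2 (13.24), WT replicate 1 (13.17), K289R replicate 7 (13.09) and WT replicate 6 (13.02), with K289R replicate 6 next at the same value to 2 decimals. These 4 are the arrays with Fabp6 signal, which was seen only after the values were known, and the part of that signal in the Clca1 spread was not tested. The difference between genotypes was 0.08 (SE 0.078, limma adjusted p = 0.777), and 6 of 7 K289R arrays were above the WT mean. Without the 4 arrays with Fabp6 signal it was 0.088 (SE 0.074). With the mean of a list of distal intestine markers as a covariate it was 0.05 (SE 0.048). Of the 6 tested markers on that list, 2 were higher in K289R and 4 lower. Fgf15, 1 of the higher ones, differed by 1.64 (SE 0.405, limma adjusted p = 0.227), and its part in this covariate was not tested.

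Agr2 encodes a disulfide isomerase of the endoplasmic reticulum needed for MUC2 folding, and Spink4 a small secreted protein of the Kazal protease inhibitor type. Agr2 read 12.57, 12.73 and 12.92 in WT and 12.53, 12.88 and 13.03 in K289R as lowest, median and highest. Its difference of 0.10 (SE 0.073, 95% interval −0.05 to 0.26, limma adjusted p = 0.703) was the largest among the mucus genes, with 6 of 7 K289R arrays above the WT mean and K289R replicate 5 below every other array. Without that array it was 0.16 (unadjusted p under 0.05, limma adjusted p = 0.364). Spink4 read 11.86, 12.32 and 12.37 in WT and 11.93, 12.33 and 12.51 in K289R, a difference of 0.04 (SE 0.103). Its values fell into a low set of 3 mice, WT replicate 3 (11.86) and K289R replicates 3 (11.93) and 5 (11.95), with the other 11 at 12.18 or above. Among all genes tested, 90.0% had a smaller SD within a genotype than Spink4.

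Retnlb encodes RELM-beta, a goblet cell protein induced in worm infection and by type 2 cytokines. It read 5.87, 6.19 and 6.39 in WT and 5.91, 6.22 and 6.40 in K289R. Its mean of 6.19 lay below the filter at 6.25, so it was left out of the main fit. In the fit of every probe set with 1 symbol its limma adjusted p was 0.997. An intensity this low does not show that the gene was off. The means of the genotypes differed by 0.0016, far less than the SD of 0.176 in WT and 0.155 in K289R.

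For the transcription factor genes no difference was detected. Atoh1, which commits progenitors to the secretory lineage, read 10.34, 10.64 and 10.78 in WT and 10.25, 10.77 and 10.92 in K289R as lowest, median and highest. In K289R, 6 of 7 arrays were above the WT mean, while K289R replicate 3 was the lowest of all 14. The difference was 0.12 (SE 0.092, 95% interval −0.07 to 0.32, limma adjusted p = 0.716), or a fold of 1.09. It was 0.20 without K289R replicate 3 (unadjusted p under 0.05, limma adjusted p = 0.422) and 0.08 without WT replicate 3. Spdef, the ETS factor of goblet and Paneth cell maturation, read 8.93, 9.01 and 9.06 in WT and 8.83, 9.01 and 9.18 in K289R. Its difference was −0.0043 (SE 0.056), and the K289R values, with an SD of 0.129, were spread more widely than the WT values, with one of 0.050. K289R had the larger SD in 8 of the 9 tested members and in 63.1% of all genes tested, a description with no test.

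**Figure D2:**
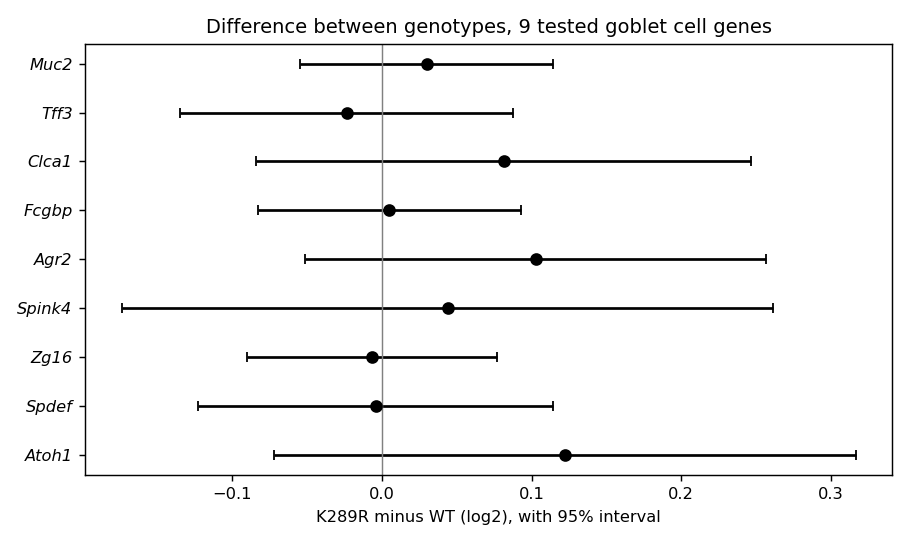
Difference K289R minus WT (log2) with its 95% interval from limma for the 9 tested goblet cell genes. Every interval includes 0, and the widest reach no lower than −0.17 (Spink4) and no higher than 0.32 (Atoh1).

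Some pairs of members varied together from mouse to mouse. Of 45 pairs of members, 8 were correlated at an adjusted p of 0.05 (Pearson r over 14 mice, permutation test with 100000 resamples, Benjamini-Hochberg over the 45 pairs), all 8 with r above 0. By Spearman's rho 0 pairs passed after adjustment (lowest adjusted p = 0.0664), with 15 at an unadjusted permutation p under 0.05 against 17 by Pearson's r. The same counts over pairs of other genes were not made. All 8 pairs had r above 0 within each genotype, from 0.55 to 0.85. Without the 2 arrays farthest from the median of the first gene, r was between 0.44 and 0.73. Cell composition, sampling site and the common scale of the arrays are shared by all genes of a mouse, and their part in these relations was not tested.

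Atoh1 took part in 3 of the 8 pairs. It correlated with Muc2 (r = 0.80, permutation p = 0.00032, adjusted p = 0.0144; rho = 0.70, permutation p = 0.00695, adjusted p = 0.0664), with r = 0.64 in WT and 0.85 in K289R. Of the other tested genes, 0.200% followed Muc2 as closely as Atoh1 did, and 0.456% followed Atoh1 as closely as Muc2 did. Over the 8 pairs such shares ran up to 2.39%, for genes that followed Spink4 as closely as Clca1 did. Atoh1 also correlated with Clca1 (r = 0.78, permutation p = 0.00096, adjusted p = 0.0153; rho = 0.64, permutation p = 0.0155) and with Spink4 (r = 0.76, permutation p = 0.00246, adjusted p = 0.0194; rho = 0.67, permutation p = 0.0108). Without the 2 arrays farthest from the median of the first gene these relations had r of 0.61 for Muc2, 0.64 for Clca1 and 0.44 for Spink4. The arrays left out depend on the first gene, so these values are not like for like. For Spink4 they were the low mice, WT replicate 3 and K289R replicate 3. Without WT replicate 3 alone, Spink4 and Atoh1 had r = 0.68, and without K289R replicate 3 alone 0.69, neither past the threshold. Within WT their r was 0.82 and within K289R 0.75.

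Further pairs past the threshold were Muc2 with Clca1 (r = 0.76), Clca1 with Spink4 (r = 0.71) and Agr2 with Spink4 (r = 0.74), with permutation p values of 0.00117, 0.00456 and 0.00301 and adjusted p values of 0.0153, 0.0257 and 0.0194. Their rho was 0.71, 0.68 and 0.71, with permutation p values of 0.00519, 0.00919 and 0.00607. Zg16 followed Spdef (r = 0.74, permutation p = 0.00262, adjusted p = 0.0194; rho = 0.64, permutation p = 0.0164), and 0.217% of the other tested genes followed Zg16 as closely. Spdef and Atoh1 themselves had r = 0.58 (permutation p = 0.0302, adjusted p = 0.0849; rho = 0.38, permutation p = 0.175), which fell to 0.20 without the 2 arrays farthest from the Spdef median.

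Tff3 and Fcgbp followed each other, and neither passed with any other member, the nearest being Fcgbp with Muc2 (r = 0.62, permutation p = 0.0172, adjusted p = 0.0643; rho = 0.51, permutation p = 0.0661). Their r was 0.77 (permutation p = 0.00136, adjusted p = 0.0153; rho = 0.66, permutation p = 0.0122), 0.68 within WT and 0.83 within K289R, and 0.56 without the 2 arrays farthest from the Tff3 median. Against Agr2, Tff3 had a negative r of −0.50 (permutation p = 0.071, adjusted p = 0.152; rho = −0.46, permutation p = 0.101). K289R replicate 5 was at the end of both scales, with the highest Tff3 (12.97) and Fcgbp (13.54) and the lowest Agr2 (12.53) of all 14 arrays. Fcgbp had r = −0.0031 with Spink4 (permutation p = 0.992; rho = −0.037, permutation p = 0.903) and −0.046 with Agr2 (permutation p = 0.875; rho = −0.033, permutation p = 0.915). Retnlb, near background, had r between −0.13 and 0.29 with the other members, none with an unadjusted permutation p under 0.05.

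**Figure D3:**
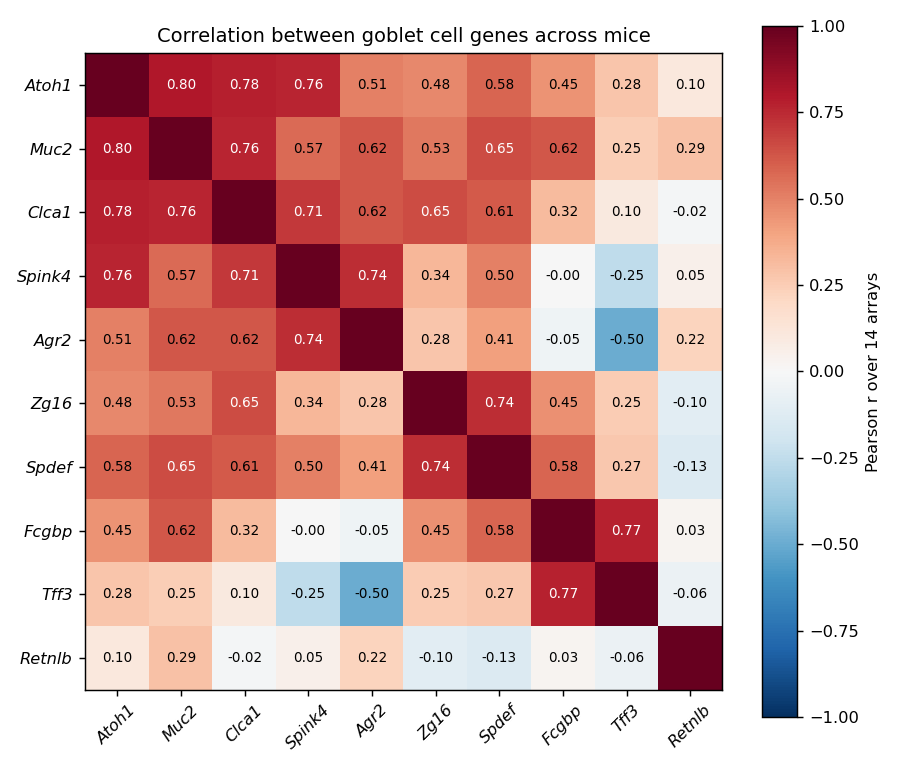
Pearson r over 14 mice for every pair of goblet cell genes, red for positive and blue for negative values. Atoh1, Muc2, Clca1, Spink4 and Agr2 have positive r with each other, from 0.51 to 0.80. Fcgbp has r = 0.77 with Tff3, and also 0.62 with Muc2 and 0.58 with Spdef. Zg16 has r = 0.65 with Clca1, and Spdef 0.65 with Muc2, so the genes do not fall into separate blocks. Retnlb stands apart with r from −0.13 to 0.29.

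**Figure D4:**
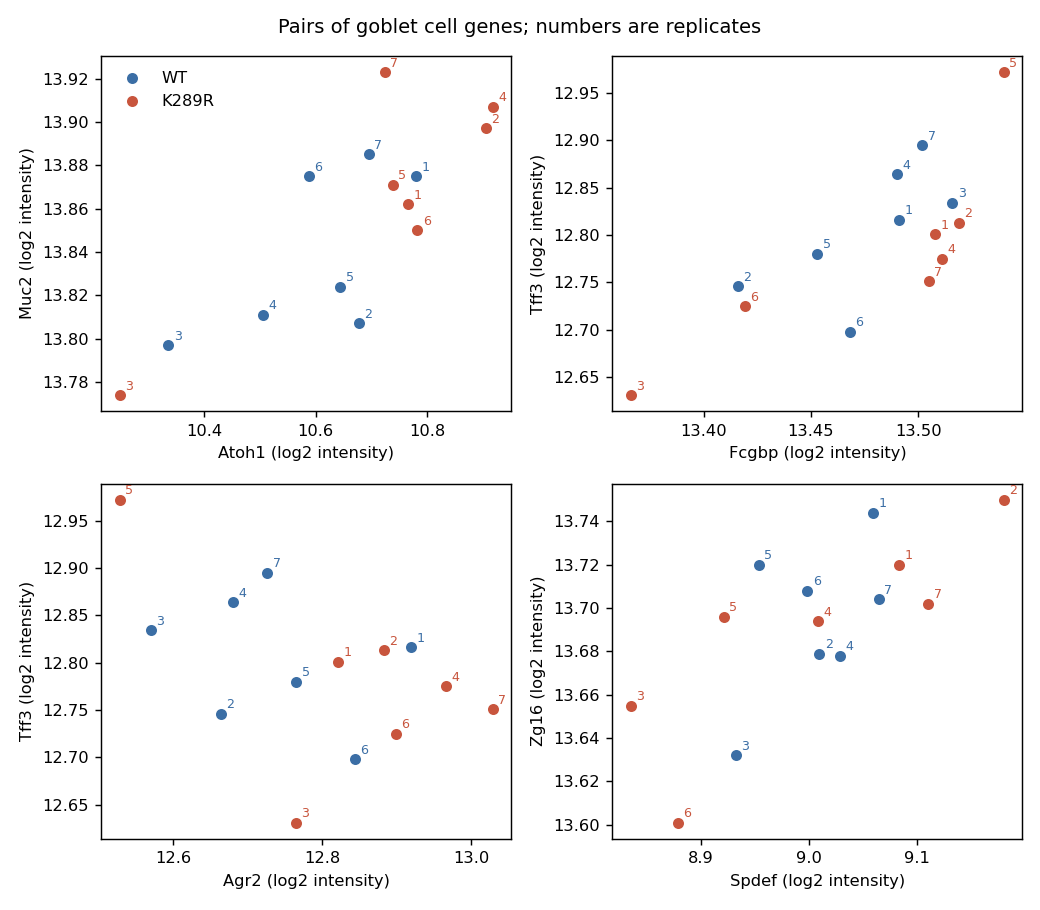
Log2 intensities of 4 pairs of goblet cell genes, 1 point per mouse labelled with its replicate number, WT in blue and K289R in red. K289R replicate 3 and WT replicate 3 lie at the low end for Atoh1 and Muc2 (r = 0.80), and K289R replicate 5 combines the highest Tff3 with the lowest Agr2 (r = −0.50 over all mice).

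The number of pairs past the threshold depended on single mice. It was 5 without WT replicate 3 (Spink4 with Atoh1, Clca1 and Agr2, and Clca1 with Atoh1, no longer passed, and Muc2 with Fcgbp now did) and 5 without K289R replicate 3 (Tff3 with Fcgbp, and Spink4 with Clca1 and Atoh1, no longer passed), the arrays with the lowest mean over the 7 bright mucus genes (12.98 on each, against at most 13.23, on K289R replicate 2). Without K289R replicate 2, Clca1 with Spink4 (adjusted permutation p = 0.0809) and Zg16 with Spdef (0.0757) no longer passed. The count was 16 without K289R replicate 5 and 17 without K289R replicate 6, the 8 pairs among them in both cases. Without the 4 arrays with Fabp6 signal 2 pairs passed over the remaining 10, Muc2 with Atoh1 (r = 0.87) and Tff3 with Fcgbp (r = 0.86). The 6 pairs that no longer passed over 10 arrays had r of 0.84 (Clca1 with Atoh1), 0.76 (Agr2 with Spink4), 0.75 (Spink4 with Atoh1), 0.70 (Muc2 with Clca1), 0.67 (Clca1 with Spink4) and 0.65 (Zg16 with Spdef), against 0.71 to 0.78 over 14. Muc2 with Atoh1 passed under each of the 18 other settings tried.

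Among pairs past the threshold, Muc2 was paired with Atoh1 and Clca1, Fcgbp with Tff3, and Agr2 with Spink4. Short of the threshold, Muc2 had r = 0.62 with both Fcgbp and Agr2 (adjusted permutation p = 0.0643 for each). Shown here are the stretches of DNA just upstream of the start sites of Muc2, Agr2 and Fcgbp. They are the 250 bases before the start in RefSeq (build GRCm38.p6, plus strand), at chr7:141690090-141690339 for Muc2, chr7:28070986-28071235 for Fcgbp and chr12:35992675-35992924 for Agr2. Capitals mark CANNTG, the E-box letters read by factors of the ATOH1 class, which read the same way on both strands.
Muc2: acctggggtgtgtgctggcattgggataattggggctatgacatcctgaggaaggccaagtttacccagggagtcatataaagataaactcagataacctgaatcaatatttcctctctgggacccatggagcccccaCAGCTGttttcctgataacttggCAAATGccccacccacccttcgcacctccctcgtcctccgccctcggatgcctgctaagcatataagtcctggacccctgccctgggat
Fcgbp: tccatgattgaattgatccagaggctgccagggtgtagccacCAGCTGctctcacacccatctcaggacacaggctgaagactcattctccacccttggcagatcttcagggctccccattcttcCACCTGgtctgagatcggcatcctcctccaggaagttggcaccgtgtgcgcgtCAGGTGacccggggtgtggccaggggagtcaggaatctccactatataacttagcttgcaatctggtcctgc
Agr2: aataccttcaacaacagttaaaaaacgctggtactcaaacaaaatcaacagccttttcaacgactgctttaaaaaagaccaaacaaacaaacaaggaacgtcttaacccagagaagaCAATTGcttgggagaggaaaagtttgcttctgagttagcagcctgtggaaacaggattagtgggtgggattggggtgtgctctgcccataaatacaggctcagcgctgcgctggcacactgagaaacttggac
Muc2 held 2 such matches, Fcgbp 3 and Agr2 1. The form CAGCTG, a subset of CANNTG, occurred in Muc2 (its first base 112 bases before the start) and in Fcgbp (208 bases before). Of 32851 promoter windows of this length in the table, 66.2% held CANNTG and 13% held CAGCTG. Promoters of 5 of the 10 members were in the table, and those of Atoh1 and Spdef had 0 matches to CANNTG. A match is a description of letters and not of binding.

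Mucins carry dense O-linked glycans, and the enzymes that build them were read from the same fit. Of 30 genes tested, 17 were higher and 13 lower in K289R (median 0.02, beside −0.0039 over all genes). By limma 0 passed over all genes tested, and 4 had an unadjusted p under 0.05 (3 higher, 1 lower), against 8.48% of all genes. St6galnac1, the sialyltransferase that caps mucin O-glycans in goblet cells, read 7.40, 7.64 and 7.94 in WT and 7.54, 8.14 and 8.36 in K289R as lowest, median and highest. Among the K289R arrays 6 of 7 were above all WT values and K289R replicate 5 (7.54) was within them. The difference was 0.46 (SE 0.110, 95% interval 0.22 to 0.69), a fold of 1.37, and did not pass (limma adjusted p = 0.200).

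C1galt1, which builds the core 1 structure on which most mucin glycans extend, read 11.48, 11.53 and 11.64 in WT and 11.62, 11.71 and 11.74 in K289R. The genotypes overlapped only through WT replicate 1 (11.64) and K289R replicate 6 (11.62), with a difference of 0.14 (SE 0.042, limma adjusted p = 0.336). Galnt7, an initiating GalNAc transferase, differed by 0.20 (SE 0.055, limma adjusted p = 0.334). The lower one was St3gal6, a sialyltransferase, at −0.16 (limma adjusted p = 0.550), named after its value was seen.

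Genes for granule formation, secretion and other goblet products showed the same picture. Not all are particular to goblet cells. The list also holds ion transport genes such as Cftr and Slc12a2, and genes on other marker lists. Among these are Muc5ac, Muc6, Tff1 and Tff2 (gastric), Ang4 (Paneth) and Guca2a (distal intestine). Of 35 tested, 21 were higher and 14 lower (median 0.03), and 0 passed limma's test over all genes, with 3 of 35 at an unadjusted p under 0.05, a share near the 8.48% of all genes. These were Sytl2, a synaptotagmin-like effector of RAB27, at 0.27 (SE 0.096, limma adjusted p = 0.442), Rab27a, a small GTPase of secretory granules, at 0.20 (SE 0.071, limma adjusted p = 0.436), and Fer1l6, a member of the ferlin family, at 0.21 (SE 0.070, limma adjusted p = 0.412). For each of them 7 of 7 K289R arrays were above the WT mean, but the ranges overlapped, as for Rab27a with 8.98 to 9.33 in WT and 9.23 to 9.61 in K289R.

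Of 18 tested regulators of secretory fate, 8 were higher and 10 lower (median −0.016). By limma 0 passed over all genes and 4 of 18 had an unadjusted p under 0.05 (1 higher, 3 lower), against 8.48% of all genes in either direction and 4.05% lower. The list was chosen with earlier results of these data known, so this count is a description and not a test. Elf3, an epithelial ETS factor, read 11.68, 11.83 and 11.93 in WT and 11.15, 11.51 and 11.59 in K289R, with no overlap between the genotypes and a difference of −0.38 (SE 0.066, limma adjusted p = 0.0507). Elf3 is also 1 of the 12 general epithelial markers whose mean is used as a covariate. It lies on chromosome 1, as does Nr5a2, whereas none of the members does. Dll1, a Notch ligand of secretory progenitors, differed by −0.21 (SE 0.064, limma adjusted p = 0.381), with 7 of 7 K289R arrays below the WT mean. Kit, a receptor of goblet-type cells as well as of pacemaker and mast cells, differed by 0.22 (SE 0.075, limma adjusted p = 0.413), beside higher smooth muscle markers described below.

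In the type 2 cytokine list, which holds signals that drive goblet cell expansion and genes that respond to them, 4 of 14 genes, Il4, Mcpt2, Chil4 and Retnla, lay below the filter. Of the 10 tested, 4 were higher and 6 lower (median −0.022). Il4ra, a chain of the receptors for IL-4 and IL-13, was the one at an unadjusted p under 0.05, with 0.17 (SE 0.067, limma adjusted p = 0.491). The share of all genes with such a p was 8.48%. Stat6, which carries the signal of that receptor, was at −0.11 (SE 0.055) and Pla2g4c, a phospholipase, at −0.20. By limma 0 passed over all genes.

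**Figure D5:**
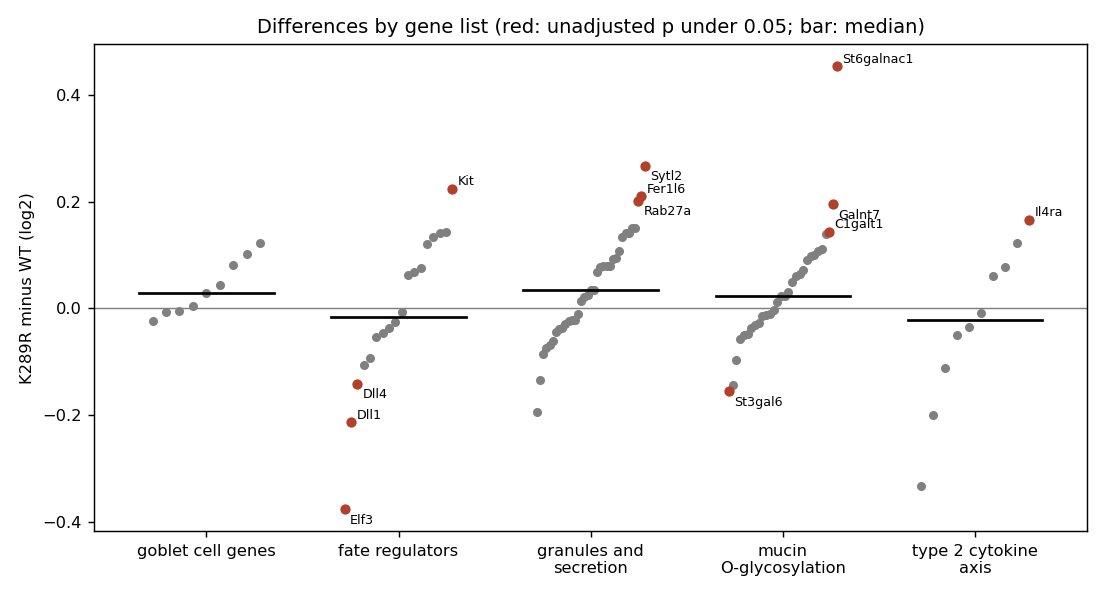
Difference K289R minus WT (log2) of each tested gene of the goblet cell genes and of 4 related lists, ordered within a list, red where the unadjusted p was under 0.05, with a bar at the list median. The medians lie between −0.022 and 0.034, 0 genes passed the adjusted threshold, and St6galnac1 (0.46) and Elf3 (−0.38) stand farthest out.

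Markers of neighbouring cell types were read beside the goblet genes. Of the secretory types, Paneth markers (11 of 14 measured, all 11 tested) had a median difference of −0.0075 and 0 genes past limma's threshold. At an unadjusted p under 0.05 there was 1 of 11, Dll4 at −0.14 (SE 0.061), against 8.48% of all genes. Dll4 is also among the lower regulators of secretory fate counted above. Next were Reg4 (−0.24, SE 0.116) and Nupr1 (0.21, SE 0.148). Enteroendocrine markers were lower in 12 of 16 (52% of all genes tested were lower) with a median of −0.057, led by Chga (−0.29, SE 0.082, limma adjusted p = 0.336), Pax4 (−0.15, SE 0.058) and Chgb (−0.22, SE 0.102), 0 past limma's threshold and 3 of 16 at an unadjusted p under 0.05, all 3 lower, against 4.05% of all genes. Tuft cell markers (11 of 13 measured) had a median of −0.020, with 1 gene at an unadjusted p under 0.05, Ltc4s at −0.19 (SE 0.059), and 0 past limma's threshold; Gnat3 was at 0.16 and Gfi1b at −0.10. Markers of crypt stem cells (11 of 12 measured) had a median of 0.0042.

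Smooth muscle markers were higher in K289R in 8 of 10, with a median of 0.21 and 6 at an unadjusted p under 0.05 (Synm 0.30, Acta2 0.19, Myh11 0.27). Fibroblast markers were higher in 10 of 10, with a median of 0.24 and 5 at an unadjusted p under 0.05 (Vim 0.33, Dcn 0.30, Lum 0.32). All of these 6 and 5 were higher, and in neither list did a gene pass limma's threshold. Of all genes tested, 8.48% had an unadjusted p under 0.05 in either direction, and 4.05% had it and were lower. At any p, 52% of all genes tested were lower in K289R. T cell markers were higher in 8 of 9, with a median of 0.29 (Cd3g 0.58, SE 0.335), and B and plasma cell markers in 7 of 7, with a median of 0.13 (Ms4a1 0.21, SE 0.295). In neither of these lists did a gene pass limma's threshold or have an unadjusted p under 0.05. The summed intensity of the 10 smooth muscle markers spanned 18621 to 20843 on WT arrays and 18634 to 25281 on K289R arrays. Their log2 mean spanned 10.406 to 10.601 on WT arrays and 10.395 to 10.865 on K289R arrays. As a covariate this mean is partly shared with genotype, so the fit does not separate muscle content from genotype. Adjusted for it, the differences of 5 members turned sign. They were −0.034 (SE 0.104) for Atoh1, −0.0098 (SE 0.097) for Clca1, −0.043 (SE 0.050) for Fcgbp, −0.012 (SE 0.049) for Muc2 and −0.041 (SE 0.132) for Spink4. Each was smaller in size than its SE, and 0 of 9 members passed. With the mean of the general epithelial markers as a covariate these 5 stayed above 0, and 0 of 9 passed.

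Across mice, the 7 bright mucus genes moved with some lists and against others. As a description over 14 mice with the genotype means removed, and with no p because the mean over chosen members is used, their mean had r = 0.96 with the list of granule and secretion genes, 0.86 with general epithelial markers, 0.84 with distal intestine markers and 0.79 with Paneth markers. It had r = −0.82 with T cell markers and −0.68 with enterocyte markers. The lowest goblet means were on WT replicate 3 and K289R replicate 3, the mice with the highest T cell means of their genotype (9.17 and 9.13, against 7.68 to 9.08 on the other 12). The distal list mean ran from 8.35 on K289R replicate 3 to 10.79 on WT replicate 1, and the enterocyte list mean from 12.90 on K289R replicate 7 to 13.18 on WT replicate 3. The r values with lists are given over all 14 mice only, with the arrays with Fabp6 signal included. The granule and secretion list shares Ang4 with the Paneth list and Guca2a with the distal list. All lists share the array scale and the piece of tissue, and their part in the spread of the goblet genes was not tested.

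Atoh1 and Spdef had r = 0.87 and 0.74 with the mean of the 7 mucus genes in the same description. Of 18001 tested genes outside the members, the 5 most like that mean were Mroh7 (r = 0.96), Slc2a13, a proton and myo-inositol symporter (0.96), Qsox1, an oxidase that forms disulfide bonds in the secretory pathway (0.96), Slc44a1, a choline transporter (0.95), and Ocm, the calcium-binding protein oncomodulin (0.94). They were chosen for this likeness among all genes, so no test is given. Without the 4 arrays with Fabp6 signal, r was 0.92 for Mroh7, 0.94 for Slc2a13, 0.91 for Slc44a1, 0.82 for Ocm and 0.59 for Qsox1. The genotype means were kept here and removed above, so these values are not the same measure as those above. Within a genotype, over all 7 arrays, Qsox1 had r = 0.91 in WT and 0.99 in K289R. Ocm had the widest range, from 9.35 on K289R replicate 3 to 11.46 on WT replicate 1, and Mroh7 ran from 7.15 on K289R replicate 3 to 8.71 on K289R replicate 2. Their differences between genotypes did not pass limma's test, with Qsox1 at −0.24 (SE 0.092, limma adjusted p = 0.468) and Ocm at −0.23 (SE 0.252).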

How the data were processed

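Total RNA of 14 jejunums was extracted with Trizol, amplified, labelled with biotin and hybridised, per the labels' protocols. The deposited table holds 1 intensity per probe set and array on a linear scale, made by the authors with Affymetrix Expression Console, per the submitters' processing notes. Which normalization it applied is not stated in the labels. Array medians were nearly equal, so log2 was taken without rescaling. Any background left in the deposited intensities compresses the differences of dim genes. Precision is limited by 7 arrays per genotype.

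Of 41345 probe sets, 23521 had 1 gene symbol in the platform annotation, 1814 several and 16010 were unnamed here. The annotation's Clca1 was checked by Entrez identifier, as older tables use that symbol for another gene. A gene was represented by its brightest probe set (22180 genes), 4170 dim genes were dropped (mean log2 under 6.25, the 25th percentile over probe sets), and limma 3.58.1 under R 4.3.3 was fitted to the other 18010 (lmFit, eBayes, 2-sided, no covariate, Benjamini-Hochberg over all genes tested). The same steps were tested on simulated data. Exact permutation tests and correlations used Python 3.11.15. Named genes are the members, up to 3 genes of each list with the smallest p, the 5 genes most like the mucus genes, and Nr5a2. List members not on the array by name are not analysed here. The members and lists were chosen with earlier results of these data known, so counts set beside shares of all genes are descriptions. Settings tried are given in the closing section.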

Additional observations from a re-analysis of the deposited data

Results flagged for a closer look

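Dixon's test at its 95% critical value was applied to each of the 10 genes in each genotype, 20 groups of 7 in all, of which chance alone flags about 1 in 20, and 2 groups had an array far from the others. Spink4 on WT replicate 3 read 11.86, where the next lowest WT array read 12.18. Atoh1 on K289R replicate 3 read 10.25, where the next lowest K289R array read 10.72. Without WT replicate 3 the Spink4 difference was −0.018, and without K289R replicate 3 that of Atoh1 was 0.20; 0 of 9 members passed limma's test in either fit.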

How the results depend on the processing

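In 28 refits of the 9 tested members, 252 in all, 0 passed limma's threshold (lowest adjusted p = 0.227) and 7 had an unadjusted p under 0.05. The sign turned in 22 of them, by at most 0.043. Under the smooth muscle covariate these were Atoh1 (−0.034), Clca1 (−0.0098), Fcgbp (−0.043), Muc2 (−0.012) and Spink4 (−0.041), without the 4 arrays with Fabp6 signal Fcgbp (−0.0065), with array weights Spdef (0.022), and with the pan-epithelial mean as a covariate Spdef (0.024) and Zg16 (0.0045). With 1 array left out, Fcgbp ran from −0.0053 to 0.024, Spdef from −0.034 to 0.024, Spink4 from −0.018 to 0.10, Tff3 from −0.056 to 0.0013 and Zg16 from −0.017 to 0.0077, while Agr2 (0.07 to 0.16), Atoh1 (0.08 to 0.20), Clca1 (0.04 to 0.12) and Muc2 (0.02 to 0.05) stayed above 0. The cause was not tested.

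The count of all genes past the threshold, 8, was 14 with array weights, 14 with the pan-epithelial covariate and 5 without the Fabp6 arrays, and 4 to 14 with 1 array left out (4 without WT replicates 3 or 4 or K289R replicate 4, 5 without K289R replicate 7, 14 without K289R replicate 5). With a replicate block it was 0, and 0 of 9 members. The replicate numbers did not pair the mice: same-numbered arrays had r from −0.15 to 0.17 for their deviations from the genotype means, and 0 of 7 WT arrays correlated best with their own number. The 8 correlated pairs were 2 without the Fabp6 arrays, with the other 6 at r of 0.65 to 0.84 over 10 arrays, and 5 to 17 with 1 array left out, and Zg16 with Spdef was at an adjusted permutation p of 0.0551 after quantile normalization. The refits of the pairs and the distal marker covariate were added after seeing the data. Retnlb was too dim for the main fit.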
